A study of Mus musculus with 24 samples.

Results

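The 10 genes followed here encode integrin subunits, measured in splenic CD4+ T cells of WT and Aim2-/- mice. They were Itgal, Itgb2, Itga4, Itgb1, Itgb7, Itgae, Itgav, Itgb3, Itga6 and Itgb8. They were found by gene symbol among the 54446 Ensembl genes of the deposited read count table, in which each of the 10 had 1 entry. All 10 of 10 passed the filter on low counts and were among the 15325 genes tested. Integrins are surface receptors made of 1 alpha and 1 beta chain. They bind ligands on other cells and in the extracellular matrix, and signals from the T cell receptor switch them to a state of high affinity. Because partners pair in fixed combinations, the supply of each chain bears on which receptors a T cell can build. Itgal with Itgb2 forms LFA-1, which binds ICAM ligands. Itga4 pairs with Itgb1 to bind VCAM-1 or with Itgb7 to bind MAdCAM-1, and Itgae pairs with Itgb7 to bind E-cadherin. Itga6 pairs with Itgb1 to bind laminins, and the partners of Itgav include Itgb3 and Itgb8.

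The study asked how AIM2, a sensor of cytosolic DNA, acts in CD4+ T cells. There were 8 groups of 3 libraries. Cells came from 3 WT mice (numbered 1, 3 and 4) and 3 Aim2-/- mice (numbered 1, 2 and 4), both of C57BL6 background, cohoused and matched for sex and age, with no age given for these mice. From each mouse, cells were left unstimulated (0 h, the control) or stimulated with antibodies to CD3 and CD28 for 3, 6 or 24 h, so that the 4 libraries of a mouse are 4 times of the same animal. In the main test the p-values rest on the spread between the 3 mice of a group, pooled over all 8 groups. That test treats the libraries as independent and leaves the pairing of times within a mouse unused. Library totals ranged from 19715161 to 21627018 counts, at which 3 counts, the floor of detection, correspond to 0.139 to 0.152 CPM (counts per 1000000 counts, here of the unscaled totals; the CPM values below use library sizes scaled by TMM). This floor covers counting error only.

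The targeted gene went against 1 label. At 0 h Aim2 was at 75.0 and 67.5 CPM in WT mice 3 and 4, whereas the mouse labelled WT 1 had 21.5 CPM and the 3 Aim2-/- mice, in which reads of the gene remained, had 15.7 to 20.1 CPM. The mouse labelled WT 1 was also far below WT mice 3 and 4 at 24 h, with 5.57 CPM against 34.0 and 38.7 CPM. Calls between the genotypes are therefore also given without it. The 8 markers of CD4+ T cells summed to 4665 to 5066 CPM in all 6 mice at 0 h, and Cd8a and Cd8b1 together to 8.12 to 11.4 CPM, as the label of the cells has it. Markers of other cells differed by genotype: at 0 h the 8 B cell markers summed to 347 to 745 CPM in WT and 4345 to 6094 CPM in Aim2-/- cells, and the 8 myeloid markers to 47.9 to 69.3 and 135 to 395 CPM. At 745 and 69.3 CPM the mouse labelled WT 1 had the highest of these WT sums at 0 h, still below those of all 3 Aim2-/- mice. By 24 h the B cell sum was 328 to 435 CPM in WT and 712 to 1602 CPM in Aim2-/- cells. In bulk RNA, fewer cells of a type and less RNA per cell cannot be told apart. The stimulation was visible in Il2ra, the alpha chain of the IL-2 receptor, which rose by 2.94 ± 0.16 (log2 fold change ± SE) in WT and 3.17 ± 0.16 in Aim2-/- cells at 24 h, and in Myc, which rose by 3.11 ± 0.21 and 2.68 ± 0.20 (adjusted p at most 1.95e-10 by edgeR's quasi-likelihood test).

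In unstimulated WT cells CPM per kb of exon was highest for Itgb7 at 138 ± 12.4 (mean ± SD, n = 3) and Itgb2 at 120 ± 11.4, followed by Itgal at 92.3 ± 9.21 and Itgb1 at 77.5 ± 29.0. Itga6 was at 34.5 ± 2.56, Itga4 at 31.5 ± 8.25, Itgb3 at 16.3 ± 3.02 and Itgav at 14.7 ± 4.34 CPM per kb. Itgae at 3.51 ± 1.85 and Itgb8 at 3.42 ± 1.81 CPM per kb were the lowest. The ranges of the 3 mice overlapped between Itgb7 and Itgb2, Itgal and Itgb1, Itga6 and Itga4, Itgb3 and Itgav, and Itgae and Itgb8, so the order within each of these pairs is not set by these data, whereas the other neighbours lay apart. When lengths were taken from the longest transcript, Itgav passed Itgb3 and Itgb8 passed Itgae at 0 h, and Itgal passed Itgb2 in WT cells at 24 h. At 24 h the order in WT cells was led by Itgb2 at 121 ± 6.64 CPM per kb, Itgal at 103 ± 7.85 and Itgb1 at 79.1 ± 7.55, with Itgb7 next at 56.3 ± 7.02. In Aim2-/- cells these 4 genes were at 114 ± 8.62, 83.3 ± 11.8, 78.7 ± 6.29 and 67.9 ± 3.29 CPM per kb at 24 h, with overlap between Itgal and Itgb1. The other 6 genes were below 10 CPM per kb on average in both genotypes at that time. These values divide by all exon bases of a gene. Itga6 has 9025 of them but 4310 in its longest transcript, by which its level was 72.3 CPM per kb in WT cells at 0 h, and 16.9 in WT and 14.2 in Aim2-/- cells at 24 h.

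**Figure D1:**
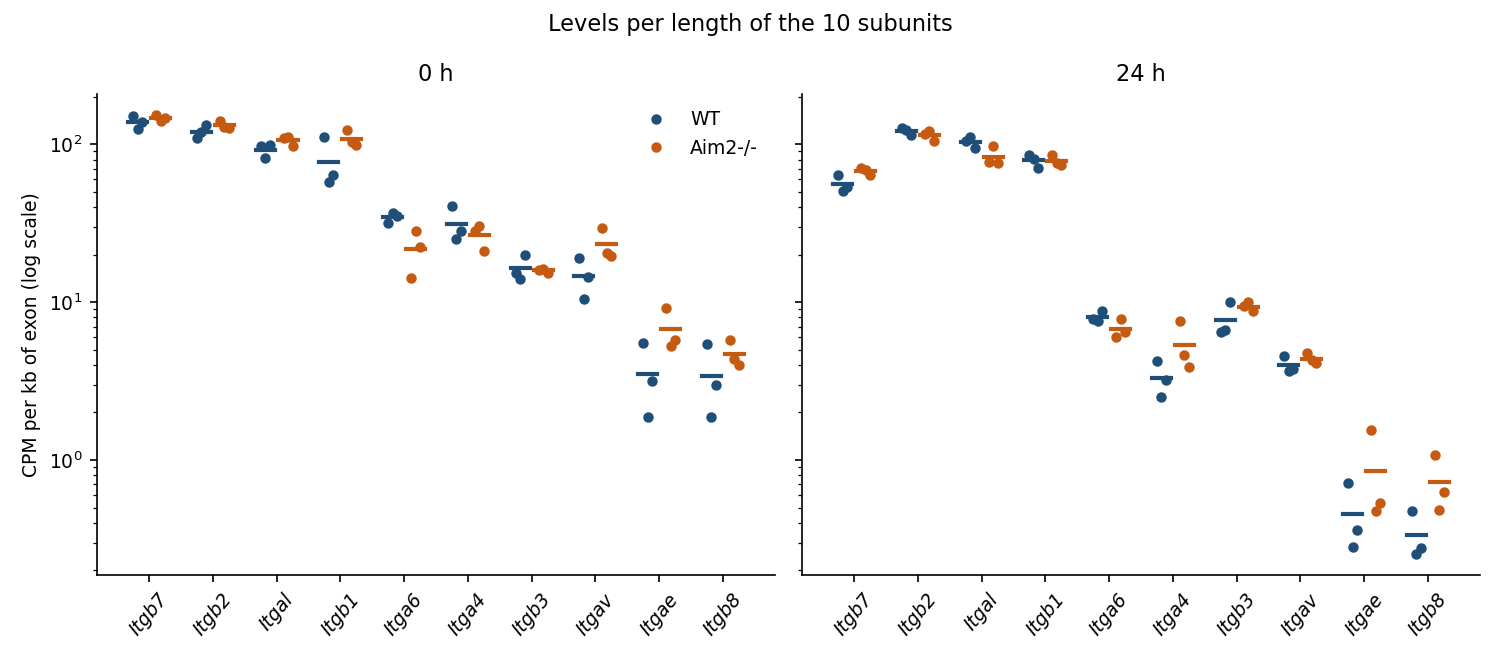
Levels of the 10 genes in CPM per kb of exon (log axis) at 0 h and 24 h, with 1 point per mouse and a bar at the mean of 3 mice (WT blue, Aim2-/- orange), in the order of the WT means at 0 h. At 24 h Itgb2, Itgal, Itgb1 and Itgb7 lay between 50.9 and 127 CPM per kb in all 6 mice, and the other 6 genes lay below them.

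Most of the 10 transcripts were lower after 24 h of stimulation, and the fall went on after 6 h. Unstimulated cells were taken at 0 h only, so stimulation and time in culture cannot be told apart. A gene is called where its adjusted p is under 0.05 by edgeR's quasi-likelihood test with Benjamini-Hochberg adjustment over all genes. In WT cells 3 of 10 genes were called at 3 h, against 32.6% of all genes tested. Of these 1 was higher and 2 were lower, against 16.2% and 16.4% of all genes. At 6 h 5 of 10 were called (51.1%), 1 higher (26.4%) and 4 lower (24.8%). At 24 h 7 of 10 were called (71.4%), all lower (34.8%). In Aim2-/- cells 3 of 10 were called at 3 h (30.7%), 1 higher (16.1%) and 2 lower (14.6%). At 6 h 8 of 10 were (51.2%), 1 higher (28.5%) and 7 lower (22.7%), and at 24 h 8 of 10 (70.3%), all lower (33.5%). The share of the 10 genes that were called at 24 h was thus near that of all genes in WT cells, while the direction was 1-sided among the 10 and mixed among all genes. The median log2 change of the 10 genes was -0.22, -0.73 and -1.58 at 3, 6 and 24 h in WT and -0.21, -0.64 and -1.39 in Aim2-/- cells, beside 0.02, 0.02 and -0.01, and 0.02, 0.08 and 0.03, for all genes tested. All comparisons with 0 h within a genotype share the 0 h libraries. Markers of several cell types were called as lower at 24 h as well, where 34.8% of all genes were in WT cells. In WT cells these were 6 of 8 CD4+ T cell markers (1 other rose), 3 of 4 NK cell, 3 of 5 dendritic cell, 5 of 8 myeloid and 3 of 8 B cell markers. Of platelet markers 4 of 6 were lower, and of neutrophil markers 2 of 5. Of 2 CD8+ T cell, 6 erythroid and 6 basophil and mast cell markers 0 were lower, and 1 of the last list was higher. The CD4+ T cell markers summed to 3466 to 3789 CPM in WT and 3517 to 3821 CPM in Aim2-/- cells. The part of these cell types in the falls of the 10 genes was not tested. At 6 h the Aim2-/- count was 4, 5 and 3 without Aim2-/- mouse 1, 2 or 4, and the WT count was 3 without the 6 h library of WT mouse 4. A fit with the mouse as a block, which uses the pairing of times within an animal, called 5 genes at 3 h in each genotype (42.7% and 41.2% of all genes). It called 7 in WT (59.2%) and 9 in Aim2-/- cells (59.9%) at 6 h, and 7 (76.3%) and 10 (75.8%) at 24 h. Without the mouse labelled WT 1, 3, 6 and 7 genes were called in WT cells at 3, 6 and 24 h, beside 22.4%, 43.7% and 64.1% of all genes.

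Between consecutive times, 2 of 10 genes were called from 3 h to 6 h in WT cells (25.7% of all genes), Itgal higher (14.2%) and Itga6 lower (11.5%). In Aim2-/- cells the 2 of 10 (23.3%) were Itgav and Itga6, both lower (9.89%). With the mouse as a block 8 and 6 were called (36.1% and 35.5%). These counts moved with single mice, to 3 without the mouse labelled WT 1 (18.6%), to 0 without WT mouse 3 or 4 and to 1, 0 and 0 without Aim2-/- mouse 1, 2 or 4. From 6 h to 24 h, 7 of 10 were called in WT (57.6%), all lower (28%), and 7 of 10 in Aim2-/- cells (54.3%), all lower (27%). The block gave 7 (65.3%) and 8 (62.9%). At 24 h against 0 h the ranges of the 3 mice did not overlap for 7 of 10 genes in WT, where 76.6% of all genes had no overlap, and for 10 of 10 in Aim2-/- cells, where 70.9% had none.

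**Figure D2:**
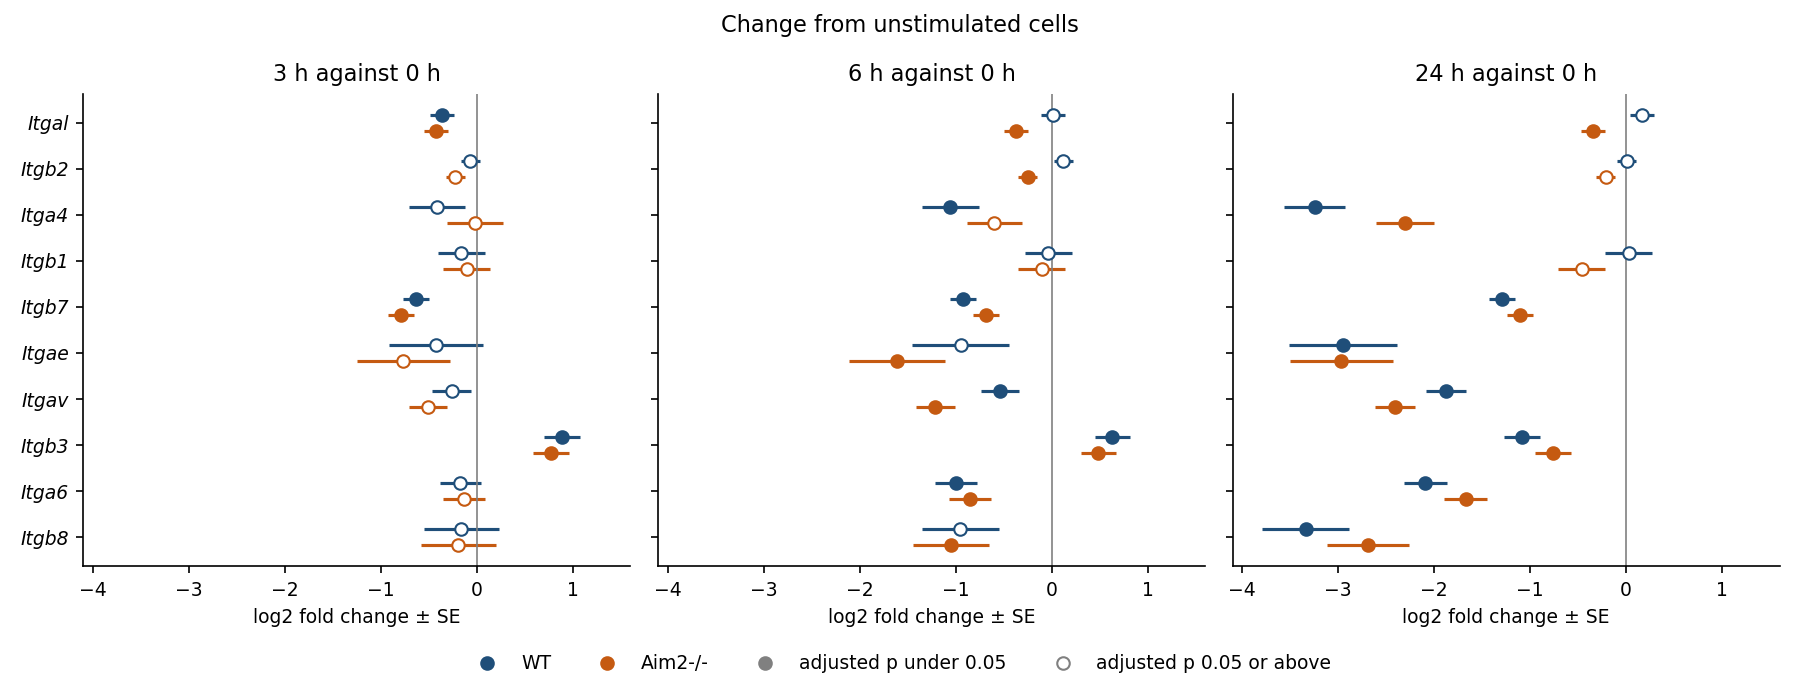
Log2 fold change ± SE from 0 h for each gene at 3, 6 and 24 h (WT blue, Aim2-/- orange, n = 3 mice each), filled where the adjusted p was under 0.05. Itgb3 lay above 0 at 3 h and 6 h and below 0 at 24 h in both genotypes, and in WT cells Itga4, Itgae and Itgb8 lay furthest below 0 at 24 h, between -3.34 and -2.95.

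The chains of LFA-1, the receptor that holds a T cell to an antigen-presenting cell, moved little. Itgal (ENSMUSG00000030830, chr7:127296260-127335138, plus strand) was at 637, 537 and 646 CPM in WT mice 1, 3 and 4 at 0 h, and at 542, 430.5 and 442 CPM at 3 h. It was lower at 3 h in 6 of 6 mice, although the WT ranges overlapped. The change at 3 h was -0.36 ± 0.13 in WT (adjusted p = 0.0311) and -0.43 ± 0.13 in Aim2-/- cells (adjusted p = 0.0128, edgeR). In WT cells Itgal then rose from 3 h to 6 h by 0.38 ± 0.13 (adjusted p = 0.0307), a call lost without any 1 of the 3 WT mice (0.0812 without the mouse labelled WT 1). At 24 h it was at 687, 727 and 625 CPM, a difference from 0 h of 0.16 ± 0.13 that did not pass (adjusted p = 0.246). In Aim2-/- cells it was at 716, 732 and 640 CPM at 0 h and at 506, 636 and 499 CPM at 24 h, ranges that did not overlap. There it remained called as lower at 6 h (-0.37 ± 0.13) and at 24 h (-0.35 ± 0.13, adjusted p = 0.0185). The calls of Itgal against 0 h depended on the scaling and on single mice. With library totals in place of TMM the calls at 3 h in WT (adjusted p = 0.144) and at 3 h and 6 h in Aim2-/- cells (0.0704 and 0.105) were lost, and with only the libraries compared the WT call was (0.0564). The WT call at 3 h was also lost without WT mouse 3 or WT mouse 4 (adjusted p = 0.0926 and 0.219), and without 1 of 4 single libraries, the 0 h ones of WT mice 1 and 4 and the 3 h ones of WT mice 3 and 4 (0.0801 to 0.136). Each of the 3 Aim2-/- calls was lost without Aim2-/- mouse 1 or 4 (0.0623 to 0.145), and without single libraries of Aim2-/- mouse 1 (24 h), mouse 2 (0 h) or mouse 4 (3, 6 or 24 h) in the comparisons that used them, with 0.0547 to 0.0852 where the call was lost. Itgb2 (ENSMUSG00000000290, chr10:77530252-77565708, plus strand), the beta chain shared by the leukocyte integrins, lay between 306 and 459 CPM in all 24 libraries. Its only call in the main test was in Aim2-/- cells at 6 h, at -0.25 ± 0.10 (adjusted p = 0.0420). That call was lost without any 1 of the 3 Aim2-/- mice (0.0890 to 0.161). It was also lost without the 0 h library of mouse 1 or the 6 h library of mouse 2 or 4 (0.0678 to 0.143). Library totals (0.314) or no filter on low counts (0.0611) ended it too. At 24 h the fit with the block called Itgb2 in Aim2-/- cells, at -0.21 (adjusted p = 0.0433). DESeq2 (0.0104), DESeq2 size factors in edgeR (0.0186), a mean of at least 1 CPM (0.0446) and only the libraries compared (0.0493) called it as well. So did the fits without the 0 h library of mouse 4 or the 24 h library of mouse 2 (0.0408 and 0.043). In WT cells the 95% interval of its change at 24 h ran from -0.19 to 0.20.

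Itga4 (ENSMUSG00000027009, chr2:79255426-79333123, plus strand), the alpha chain of the receptors for VCAM-1 and MAdCAM-1, fell late and far. It was at 570, 352 and 397 CPM in WT mice 1, 3 and 4 at 0 h, at 305, 157 and 173 CPM at 6 h, and at 59.5, 34.9 and 44.8 CPM at 24 h. In Aim2-/- mice 1, 2 and 4 it was at 392, 426 and 295 CPM at 0 h, at 291, 268 and 178 CPM at 6 h, and at 106, 64.9 and 54.6 CPM at 24 h. Every mouse was lower at 24 h than at 6 h and lower at 6 h than at 0 h. The log2 change was -1.05 ± 0.29 at 6 h (adjusted p = 0.00473) and -3.24 ± 0.32 at 24 h (adjusted p = 9.12e-09) in WT. In Aim2-/- cells it was -0.59 ± 0.29 at 6 h, not called in the main test (adjusted p = 0.0951). It was called with the block (adjusted p = 0.000303), by DESeq2 (0.0418), with no filter on low counts (0.00294) and with only the libraries compared (0.0251). Leaving out the 0 h library of Aim2-/- mouse 4 gave the call as well (0.0498). At 24 h the Aim2-/- change was -2.30 ± 0.31 (adjusted p = 8.96e-07). The block also gave a call in WT cells at 3 h, at -0.39 (adjusted p = 0.0188). Of its exon bases, 1124 (8.04%) overlap Cerkl on the opposite strand, and whether the counting used the strand is not stated.

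Itgb1 and Itgb7 are the beta chains that compete for Itga4, and they behaved differently. Itgb1 (ENSMUSG00000025809, chr8:128685654-128733200, plus strand) was at 452, 237 and 259 CPM in WT mice 1, 3 and 4 at 0 h and at 349, 331 and 289 CPM at 24 h. In the main test it was called at no time in either genotype. With the mouse as a block it was called as lower in Aim2-/- cells at 24 h, at -0.46 (adjusted p = 0.000809). There the 3 mice went from 503, 420 and 406 CPM to 350, 312 and 302 CPM without overlap. DESeq2 (adjusted p = 0.0421), no filter on low counts (0.00642) and only the libraries compared (0.00437) gave this call too. Itgb7 (ENSMUSG00000001281, chr15:102215995-102231944, minus strand), the beta chain of gut homing, was at 416, 347 and 382 CPM in WT mice at 0 h and already at 289, 199 and 251 CPM at 3 h. It went on to 178, 141 and 149 CPM at 24 h, and the ranges at 0 h and at each later time did not overlap in either genotype. The changes at 3, 6 and 24 h were -0.63 ± 0.14, -0.92 ± 0.14 and -1.29 ± 0.14 in WT and -0.79 ± 0.14, -0.68 ± 0.14 and -1.11 ± 0.14 in Aim2-/- cells, all called (adjusted p at most 0.00100). Itgb7 was lower than at 0 h in 6 of 6 mice at each time.

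Of the 10 genes, 5 had an entry in the promoter table of RefSeq (GRCm38.p6): Itga4, Itgb1, Itgb7, Itgav and Itgb8. The 120 bases before the gene model used for the counts are shown for 3 genes that fell and for Itgb1, which was not called in WT cells. The start in RefSeq is the same for Itga4, Itgav and Itgb1, and for Itgb7 it lies 9 bases inside the gene. Capitals mark matches to the motifs searched, on both strands, and each sequence runs 5′ to 3′ on the strand of its gene.
Itga4, chr2:79255306-79255425, plus strand: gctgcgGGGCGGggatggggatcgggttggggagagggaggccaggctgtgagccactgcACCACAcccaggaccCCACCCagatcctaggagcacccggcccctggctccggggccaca
Itgb7, chr15:102231945-102232064, minus strand: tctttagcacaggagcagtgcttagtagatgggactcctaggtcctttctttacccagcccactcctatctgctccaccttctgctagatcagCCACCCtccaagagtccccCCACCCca
Itgav, chr2:83724277-83724396, plus strand: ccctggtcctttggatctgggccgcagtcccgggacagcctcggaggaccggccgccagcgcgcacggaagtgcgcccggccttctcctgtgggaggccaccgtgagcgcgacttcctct
Itgb1, chr8:128685534-128685653, plus strand: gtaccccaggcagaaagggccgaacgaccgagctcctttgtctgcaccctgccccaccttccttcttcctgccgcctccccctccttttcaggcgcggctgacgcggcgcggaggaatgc
The 7 motifs were a Runx core (ACCACA), the GC box of Sp and Klf factors (GGGCGG), the CACCC box of Klf factors (CCACCC), an Ets motif (CCGGAAG), the NFAT core (GGAAAA), an AP-1 site (TGANTCA) and the TATA box (TATAAA), looked for in the 250 bases before each RefSeq start. The CACCC box matched in Itga4, Itgb7 and Itgb8, 3 of 5 genes, and in 28.1% of 32851 promoters. The Runx core matched in Itga4 alone, 1 of 5, and in 14.0% of promoters, while the GC box matched in Itga4 and Itgb1, 2 of 5, and in 32.7%. The match of Itgb1 lies before the stretch shown. The Ets, NFAT, AP-1 and TATA letters were in none of the 5 windows, beside 6.91%, 20.4%, 6.75% and 12.4% of all promoters. A match describes the letters only.

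Ratios within a library do not depend on how libraries are scaled, and were compared between 0 h and 24 h over the 6 mice. Itgb1 counts per Itgb7 count went from 0.953 ± 0.220 (SD) to 1.90 ± 0.255, a rise of 1.02 ± 0.51 on the log2 scale seen in 6 of 6 mice (exact two-sided sign-flip permutation test, p = 0.0313, adjusted p = 0.0469 over 3 ratios). Itga4 per Itgb7 went the other way, from 1.03 ± 0.211 to 0.345 ± 0.102, a log2 change of -1.59 ± 0.49 with 0 of 6 mice higher (exact permutation p = 0.0313, adjusted p = 0.0469). The Itgal to Itgb2 ratio was 1.70 ± 0.169 at 0 h and 1.71 ± 0.182 at 24 h, higher in 2 of 6 mice, and its log2 change ranged from -0.22 to 0.41 between mice (exact permutation p = 0.969). With 6 mice the smallest p this test can give is 0.0313, so leaving out any 1 mouse ends both calls.

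**Figure D3:**
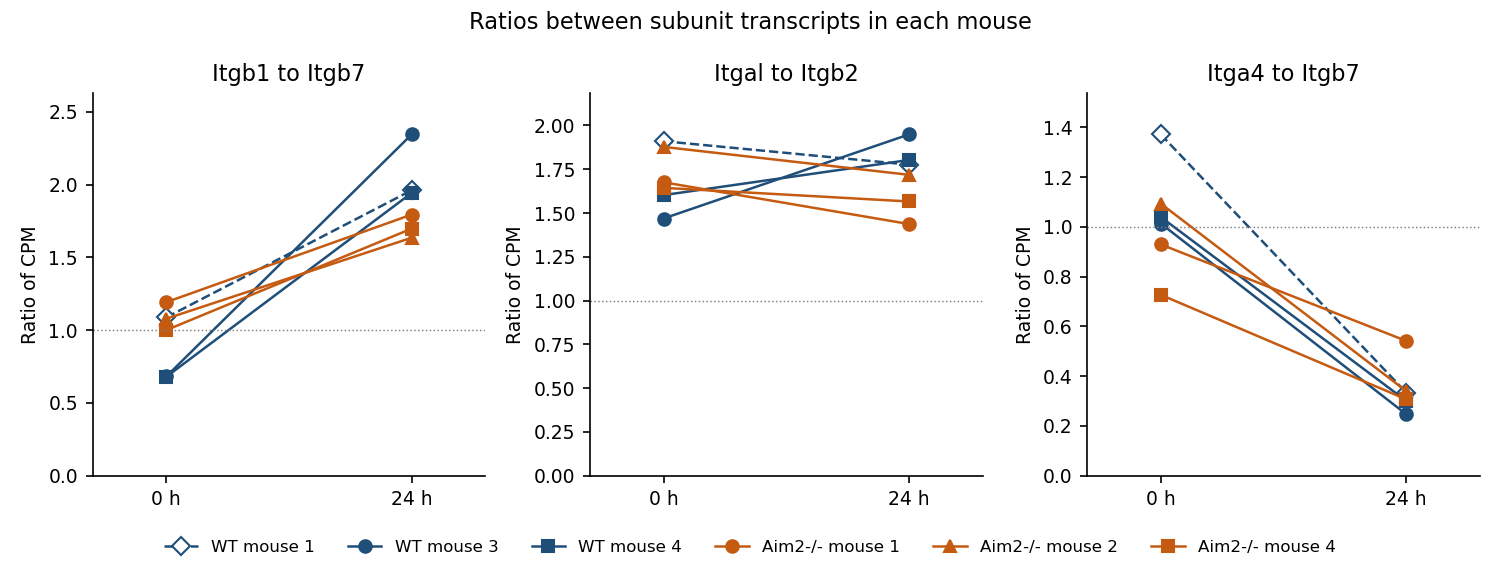
Ratios of CPM between pairs of genes at 0 h and 24 h, with 1 line per mouse (WT blue, Aim2-/- orange, the mouse labelled WT 1 with open diamonds and a broken line). Itgb1 to Itgb7 rose in 6 of 6 mice and Itga4 to Itgb7 fell in 6 of 6, whereas lines for Itgal to Itgb2 crossed.

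Itgae (ENSMUSG00000005947, chr11:73090583-73147446, plus strand), the alpha chain that with Itgb7 binds E-cadherin and marks T cells of epithelia and a part of regulatory T cells, was scarce. It was at 25.3, 8.53 and 14.4 CPM in WT mice 1, 3 and 4 and at 41.9, 24.1 and 26.5 CPM in Aim2-/- mice 1, 2 and 4 at 0 h. At 24 h it was at 3.29, 1.28 and 1.64 CPM and at 7.14, 2.17 and 2.46 CPM, with no overlap with 0 h in either genotype and all values above the floor. The change at 24 h was -2.95 ± 0.56 in WT (adjusted p = 7.81e-05) and -2.97 ± 0.54 in Aim2-/- cells (adjusted p = 4.89e-05). At 6 h it was called in Aim2-/- cells, at -1.61 ± 0.50 (adjusted p = 0.0106). That call was lost without Aim2-/- mouse 4 (0.0727) or the 6 h library of Aim2-/- mouse 2 (0.0516). In WT it was called at 6 h with the mouse as a block, at -0.94 (adjusted p = 0.000105), and with no filter on low counts (0.0119). Leaving out the 0 h library of WT mouse 3 or the 6 h one of the mouse labelled WT 1 gave that call too (0.0473 and 0.0326). Aim2-/- cells at 3 h were called as well with the block, at -0.80 (adjusted p = 0.000536).

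Itgav pairs with Itgb8 in a receptor that releases active TGF-beta from its latent form, and both chains fell. Itgav (ENSMUSG00000027087, chr2:83724397-83806916, plus strand) was at 206, 113 and 155 CPM in WT mice 1, 3 and 4 at 0 h and at 49.2, 39.4 and 40.4 CPM at 24 h. In Aim2-/- mice 1, 2 and 4 it was at 319, 221 and 211 CPM at 0 h, at 120, 103 and 101 CPM at 6 h, and at 51.2, 46.2 and 43.9 CPM at 24 h. The Aim2-/- mice thus began higher and ended near the WT mice. The change was -0.54 ± 0.20 at 6 h (adjusted p = 0.0309) and -1.88 ± 0.21 at 24 h (adjusted p = 6.52e-08) in WT, and -1.21 ± 0.20 (adjusted p = 4.12e-05) and -2.41 ± 0.21 (adjusted p = 2.12e-09) in Aim2-/- cells. The WT call at 6 h was lost without WT mouse 4 (adjusted p = 0.159) or the 0 h library of the mouse labelled WT 1 (-0.34, adjusted p = 0.178), and also without the 6 h library of WT mouse 3 or 4 (0.129 and 0.123), with library totals (0.10) or with only the libraries compared (0.0875). Itgav was called at 3 h too in the fit with the block, at -0.24 in WT (adjusted p = 0.0431) and -0.50 in Aim2-/- cells (adjusted p = 0.000143). In Aim2-/- cells the 3 h call was also given by DESeq2 (0.0345) and no filter on low counts (0.00839), against 0.0588 in the main test. Leaving out the 0 h library of mouse 4 or the 3 h library of mouse 1 gave it as well (0.0369 and 0.0254). Of its exon bases, 634 (5.90%) overlap Gm13684 on the opposite strand.

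Itgb8 (ENSMUSG00000025321, chr12:119158022-119238802, minus strand) was at 59.9, 20.7 and 32.8 CPM in WT mice 1, 3 and 4 at 0 h and at 5.27, 2.83 and 3.08 CPM at 24 h. In Aim2-/- mice 1, 2 and 4 it went from 63.6, 48.2 and 44.4 CPM to 11.9, 5.34 and 6.93 CPM. The change was -3.34 ± 0.46 in WT (adjusted p = 1.18e-06), close to that of Itga4, and -2.69 ± 0.43 in Aim2-/- cells (adjusted p = 1.03e-05). At 6 h it was called in Aim2-/- cells, at -1.05 ± 0.40 (adjusted p = 0.0327, from 0.0844 to 0.128 without any 1 of the 3 Aim2-/- mice, and from 0.0731 to 0.112 without the 0 h library of mouse 1 or the 6 h library of mouse 2 or 4). That call was lost too with library totals (0.0703). In WT it was called at 6 h with the block, at -0.96 (adjusted p = 5.73e-06), and without the mouse labelled WT 1, at -1.02 (adjusted p = 0.0294). The main test gave an adjusted p of 0.0534 there. DESeq2 (0.0495), limma-voom (0.0474), DESeq2 size factors in edgeR (0.0406), no filter (0.000837) and a mean of at least 1 CPM (0.0488) called it too. So did the fits without the 0 h library of WT mouse 3 or the 6 h one of the mouse labelled WT 1 (0.013 and 0.00509). The 5 markers of regulatory T cells summed to 947 to 1226 CPM in WT and 1265 to 1552 CPM in Aim2-/- cells at 0 h, and to 1155 to 1264 and 1304 to 1676 CPM at 24 h, a sum that includes Il2ra. At 24 h 3 of the 5 were called as lower and 1 as higher in each genotype, with a median of -1.09 in WT and -0.66 in Aim2-/- cells. The part of regulatory T cells in the levels of Itgae and Itgb8 was not tested.

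Itgb3 (ENSMUSG00000020689, chr11:104608000-104670476, plus strand), another beta chain that can pair with Itgav, was the only one of the 10 called as higher at 3 h. It was at 90.5, 82.3 and 116 CPM in WT mice 1, 3 and 4 at 0 h, at 132, 170 and 233 CPM at 3 h, and at 38.1, 39.4 and 59.0 CPM at 24 h. In Aim2-/- mice 1, 2 and 4 it was at 94.9, 96.2 and 90.8 CPM, then at 157, 164 and 160 CPM, and at 24 h at 55.4, 58.9 and 51.7 CPM. All 6 mice were above their 0 h value at 3 h and 6 h and below it at 24 h. The rise at 3 h was 0.89 ± 0.18 in WT (adjusted p = 0.000772) and 0.77 ± 0.18 in Aim2-/- cells (adjusted p = 0.00300), and at 6 h 0.63 ± 0.18 (adjusted p = 0.00640) and 0.49 ± 0.18 (adjusted p = 0.0323). The WT call at 6 h was lost without WT mouse 3 (adjusted p = 0.0702), its 0 h library (0.0594) or the 6 h library of WT mouse 4 (0.0521). The Aim2-/- call at 6 h was lost without any 1 of the 3 mice (0.0695 to 0.176) or any 1 of the 3 libraries at 0 h and those of mice 1 and 2 at 6 h (0.0808 to 0.122), and also with DESeq2 size factors in edgeR (0.0657) or DESeq2's own test (0.0560). The fall at 24 h was -1.08 ± 0.19 (adjusted p = 2.69e-05) and -0.76 ± 0.19 (adjusted p = 0.00106). Itgb3 is also abundant in platelets, whose 7 markers summed to 4.16 to 8.53 CPM in WT and 14.4 to 21.1 CPM in Aim2-/- cells at 0 h. At 3 h they summed to 3.55 to 7.60 and 7.25 to 18.4 CPM. The part of platelets in the level of Itgb3 was not tested.

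Itga6 (ENSMUSG00000027111, chr2:71745616-71858416, plus strand), a laminin-binding chain abundant in naive T cells, stayed near its 0 h level for 3 h and then fell. It was at 287, 333 and 315 CPM in WT mice 1, 3 and 4 at 0 h, at 139, 143 and 186 CPM at 6 h, and at 70.9, 68.7 and 79.4 CPM at 24 h. In Aim2-/- mice 1, 2 and 4 it was at 128, 253 and 203 CPM at 0 h, at 100, 127 and 96.1 CPM at 6 h, and at 54.2, 70.7 and 58.1 CPM at 24 h. The WT mice were the higher ones at 0 h and 6 h, with no overlap. The changes at 6 h and 24 h were -0.996 ± 0.22 (adjusted p = 0.000606) and -2.09 ± 0.23 (adjusted p = 3.79e-08) in WT, and -0.85 ± 0.22 (adjusted p = 0.00260) and -1.67 ± 0.22 (adjusted p = 9.80e-07) in Aim2-/- cells.

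**Figure D4:**
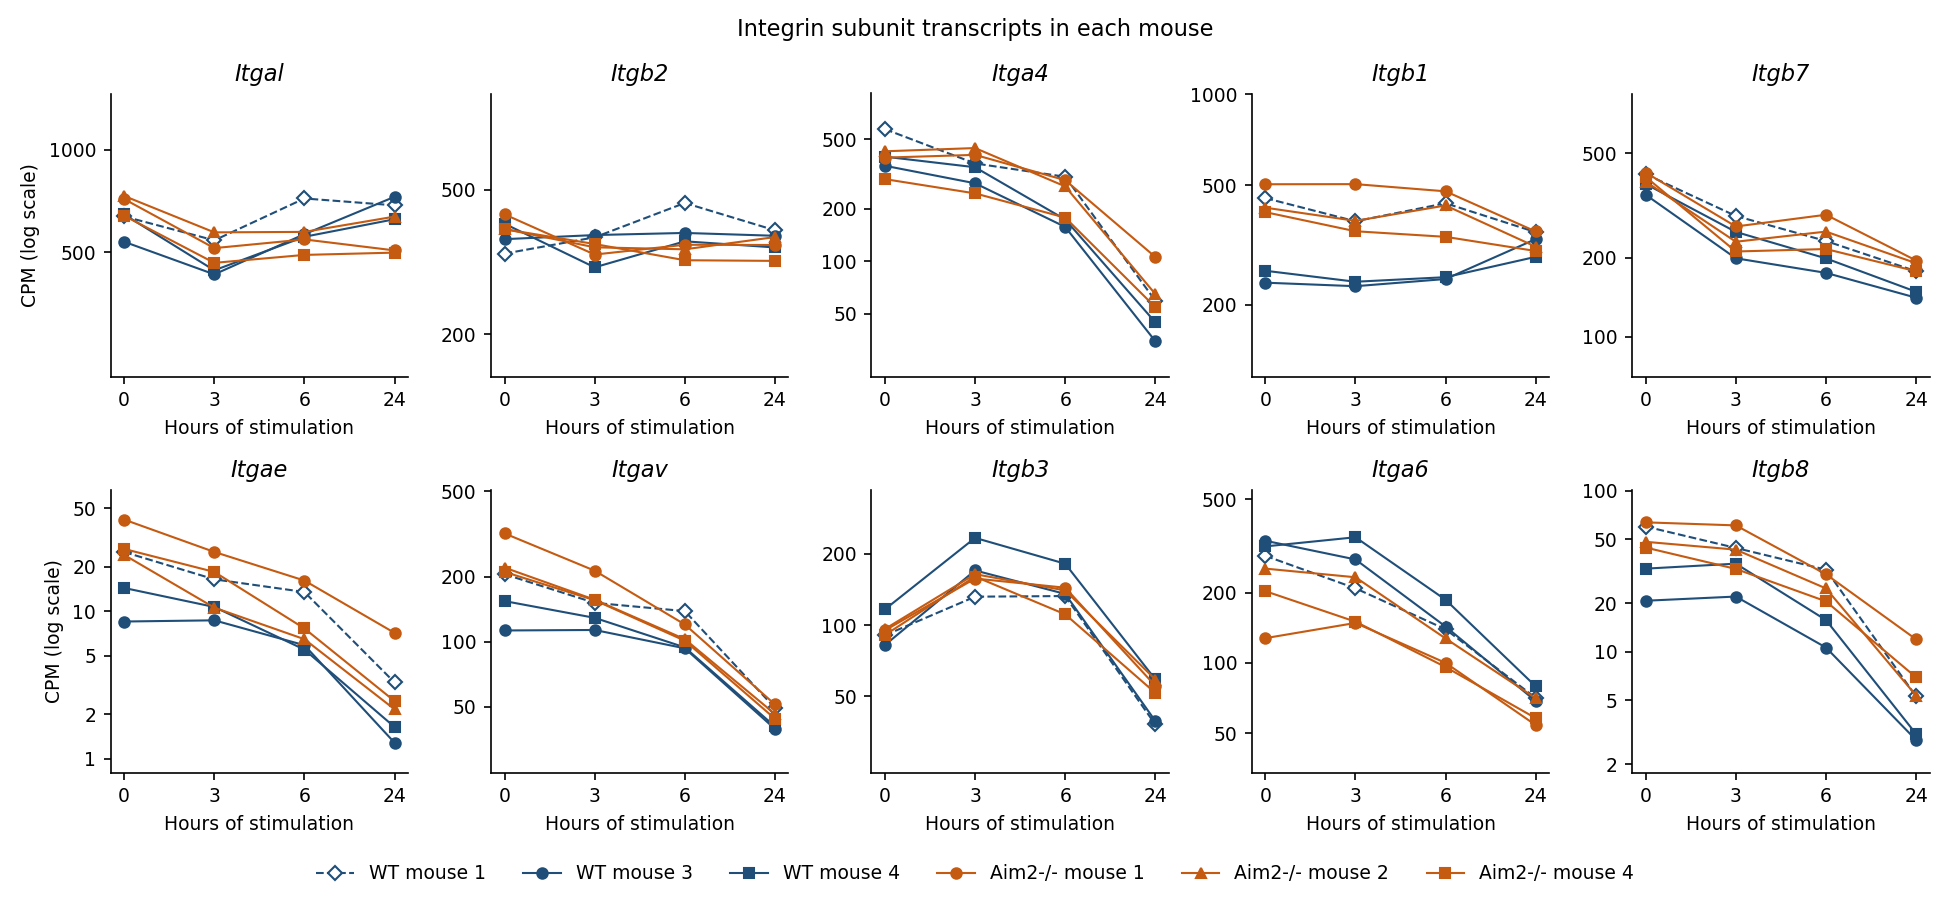
CPM (log axis) of each gene in each mouse at 0, 3, 6 and 24 h of stimulation, the times drawn at equal steps, with 1 line per mouse (WT blue, Aim2-/- orange, the mouse labelled WT 1 with open diamonds and a broken line). Itgb1 in the mouse labelled WT 1 ran among the Aim2-/- mice from 0 h to 6 h, above WT mice 3 and 4, and Itgb3 peaked at 3 h or 6 h in all 6 mice.

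Aim2-/- and WT cells were then compared at each time. By edgeR's quasi-likelihood test 0 of 10 genes were called at 0, 3, 6 and 24 h, where 5.23%, 0.294%, 15.8% and 0.666% of all genes were. An unadjusted p under 0.05 was found for 2, 2, 3 and 3 of the 10. Of all 15325 genes tested, 3649, 2350, 5225 and 3134 had one at these times. DESeq2 called 2 at 0 h and 1 at 6 h, and limma-voom 1 at 0 h. With the 4 libraries of each mouse summed, 0 of 10 were called (0.0117% of all genes). In that comparison 1 of the 10 had an unadjusted p under 0.05, beside 4004 of 17163 genes tested. The median difference of the 10 genes was 0.16, 0.14, 0.10 and 0.20 at the 4 times, beside -0.01, 0.00, 0.05 and 0.01 for all genes tested. Without Aim2-/- mouse 2 the counts were 2, 1, 1 and 1, and 1 summed per mouse. For this fit, DESeq2 and limma-voom the share of all genes called is not given, so their counts cannot be set against it. Leaving out the mouse labelled WT 1 gave 2 at 0 h (5.77% of all genes), 1 at 3 h (2.71%), 2 at 6 h (11.4%) and 0 at 24 h (1.05%), with 0 summed per mouse (0.854%).

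Itgb1 gained calls without that mouse. Its level at 0 h was 237 and 259 CPM in WT mice 3 and 4, but 452 CPM in the library labelled WT 1, beside 406 to 503 CPM in Aim2-/- cells. The mouse labelled WT 1 thus lay within the Aim2-/- range of Itgb1 and the other WT mice below it. For Itga6 at 0 h that mouse was at 287 CPM, above the Aim2-/- range of 128 to 253 CPM. With all mice the log2 difference of Itgb1 was 0.49 ± 0.25, 0.54 ± 0.25 and 0.42 ± 0.24 at 0, 3 and 6 h, with adjusted p of 0.230, 0.300 and 0.228, and -0.01 at 24 h. Without the mouse labelled WT 1 it was called at the first 3 times, at 0.84 ± 0.16, 0.81 ± 0.16 and 0.75 ± 0.16, with adjusted p of 0.00688, 0.0125 and 0.0115, and it was 0.05 at 24 h (adjusted p = 0.886). Summed per mouse it was 0.65 without that mouse and not called (adjusted p = 0.0837).

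Itgav and Itga6 had groups that did not overlap at 0 h, 2 of 10 genes beside 28.5% of all genes. Itgav was higher in Aim2-/- cells by 0.67 ± 0.20 (adjusted p = 0.0563), and by 0.90 ± 0.18 without the mouse labelled WT 1 (adjusted p = 0.00892) or 0.86 without its 0 h library alone (0.0256). It was called as well without Aim2-/- mouse 2 (0.75, adjusted p = 0.0455) or its 0 h library (0.70, 0.0477). Over all libraries and mice left out in turn the difference ran from 0.43 to 0.90, with adjusted p up to 0.356. DESeq2 (0.0244), limma-voom (0.0478) and voom with the mouse as a random block (0.0140) called it. At 6 h and 24 h its difference was -0.01 and 0.13. Itga6 was lower in Aim2-/- cells by 0.68 ± 0.22 on the log2 scale at 0 h (-0.68, adjusted p = 0.0664), with -0.65, -0.54 and -0.26 at 3, 6 and 24 h, and none of these was called by edgeR with or without the mouse labelled WT 1. DESeq2 called Itga6 at 0 h (0.0252) and summed per mouse (0.0174), and voom with the mouse as a random block at 0 h and 6 h (0.0205 and 0.0482). Without Aim2-/- mouse 2, whose Itga6 was the highest of its genotype, Itga6 was called at 0, 3 and 6 h, at -0.92, -0.89 and -0.67, with adjusted p of 0.00729, 0.0154 and 0.0184, and summed per mouse at -0.80 (0.0220). Without only the 0 h or only the 3 h library of that mouse it was called at that time (0.0183 and 0.0490). With other libraries or mice left out the difference shrank to -0.45, -0.46 and -0.39 at 0, 3 and 6 h, with adjusted p up to 0.339, 0.670 and 0.295. Itgb7 differed by 0.33 ± 0.13 at 6 h (adjusted p = 0.0963), and by 0.43 ± 0.13 without the mouse labelled WT 1 (adjusted p = 0.0412), and was called by voom with the mouse as a random block (0.0440). Itgae and Itgb8 were higher on average in Aim2-/- cells at all 4 times, by 0.28 to 0.94 and 0.36 to 1.11. They were not called in the main test or without the mouse labelled WT 1. At 24 h no filter called 2 of the 10 genes and the fit without Aim2-/- mouse 2 called 1. Itgb1, Itgav and Itga6 were not among these.

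**Figure D5:**
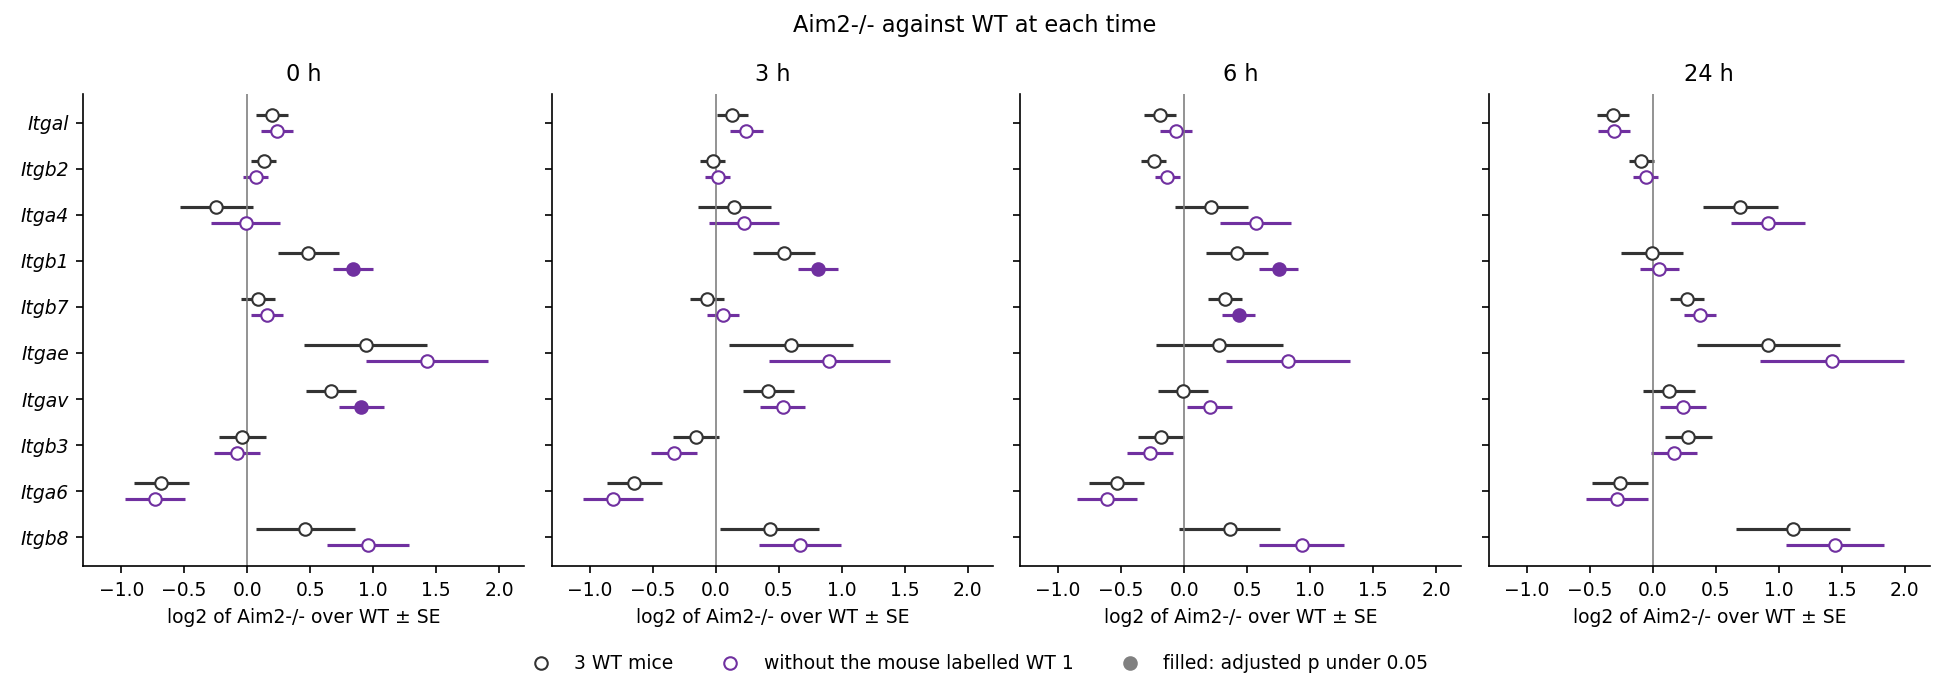
Log2 difference ± SE of Aim2-/- over WT for each gene at each time, with 3 WT mice (dark) and without the mouse labelled WT 1 (purple), filled where the adjusted p was under 0.05. The filled points are Itgb1 at 0, 3 and 6 h, Itgav at 0 h and Itgb7 at 6 h, all without that mouse.

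The B cell and other marker sums given above were higher in Aim2-/- cells in the same comparisons. With scores of the B cell, myeloid and erythroid marker lists as terms in the model, 0 of 10 genes were called at any time, as without these terms. The difference at 0 h was then 0.09 ± 0.21 for Itgb1, 0.28 ± 0.17 for Itgav and -0.29 ± 0.17 for Itga6 (adjusted p = 0.878, 0.446 and 0.422). The B cell and myeloid sums did not overlap between the genotypes at 0 h, so this fit does not separate the genotype from the content of other cells. How far cells other than T cells make up these differences was not tested.

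Whether the change of a gene from 0 h differed between the 2 genotypes was tested as an interaction. Without the block 0 of 10 genes were called at 3, 6 or 24 h, where 0%, 0.0261% and 0% of all genes were. An unadjusted p under 0.05 was found for 0, 3 and 2 of the 10, beside 653, 2019 and 1825 of all 15325 genes. With the mouse as a block 0, 1 and 3 were called, where 0.0587%, 4.68% and 2.77% of all genes were. At 24 h the Aim2-/- change exceeded the WT change by 0.92 for Itga4 (adjusted p = 0.0149), whose fall was thus smaller in Aim2-/- cells. The Aim2-/- change minus the WT change at 24 h was -0.54 for Itgav (adjusted p = 0.0327) and -0.52 for Itgal (adjusted p = 0.0269), and at 6 h it was -0.67 for Itgav (adjusted p = 0.0112). In the fit without the block the adjusted p for these 4 were 0.372, 0.471, 0.250 and 0.300. Without the mouse labelled WT 1 the fit with the block called 0, 1 and 4 genes (0.198%, 3.49% and 4.22% of all genes), a setting added after the data were seen. These were Itga4 (0.91, adjusted p = 0.0167), Itgav (-0.66, 0.0180), Itgal (-0.55, 0.0249) and Itgb1 (-0.78, 0.00384) at 24 h and Itgav at 6 h (-0.70, 0.0151). The fit without the block called 0 at each time without that mouse (0%, 0.0511% and 0.102%).

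Of the other genes of integrin biology, 3 lists were counted, beside all genes tested, of which 71.4% were called in WT cells at 24 h with a median of -0.01. Of 17 further integrin subunits 13 were tested, and 0 rose and 8 fell in WT cells at 24 h, with a median of -1.44. Those with the largest changes and at least 10 CPM were Itga7 (-3.29 ± 0.36), from 12.9 to 1.31 CPM on average, and Itga3 (-1.44 ± 0.20), from 19.0 to 6.98 CPM, both laminin-binding chains. In Aim2-/- against WT cells, Itga7 was called at 6 h (0.95, adjusted p = 0.0472), and Itga2b, the partner of Itgb3 in platelets, at 6 h and at 24 h (1.51 and 1.79, with adjusted p of 0.0145 and 0.0317). Without the mouse labelled WT 1 the adjusted p of Itga7 was 0.0490, and those of Itga2b 0.0403 at 6 h and 0.0540, no longer a call, at 24 h. Platelet markers summed to 2.92 to 5.40 CPM in WT and 8.69 to 19.2 CPM in Aim2-/- cells at 6 h, and those of basophils and mast cells to 17.8 to 29.0 and 91.3 to 195 CPM. Their part in Itga2b was not tested.

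The list of activators and adaptors includes genes that couple integrin tails to the cytoskeleton and genes that regulate the switch of the receptors. Of 40 listed 36 were tested, and 13 rose and 17 fell in WT cells at 24 h, with a median of -0.11. The largest change was that of Rasgrp2, the exchange factor that activates Rap1, at -4.30 ± 0.17, from 388 to 19.6 CPM on average. Fyb, an adaptor known as ADAP, fell by 2.68 on the log2 scale (964 to 151 CPM), and Stk4, a kinase also called Mst1 (-2.23), and Cytip, which regulates cytohesin (-2.22), fell too, whereas Parvg, the parvin of blood cells, rose by 1.61, from 64.5 to 197 CPM. Between the genotypes 2 of the 36 were called as higher and 2 as lower in Aim2-/- cells at 0 h, where 5.23% of all genes were called. At 6 h 3 were higher and 1 was lower (15.8%). Named among those at 0 h are Parvb (1.94, adjusted p = 0.0179) and Apbb1ip, the Rap1 effector RIAM (-0.48, adjusted p = 0.0176). Those at 6 h were Parvb (2.42, adjusted p = 0.00561), Skap2 (0.72, 0.0306), Adap1, a gene other than ADAP (0.92, 0.0326), and Rasgrp1 (-0.61, 0.0352). Of these 6 named calls that of Skap2 was lost without the mouse labelled WT 1 (adjusted p = 0.0540).

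Of 26 ligands and membrane partners 23 were tested, and 3 rose and 14 fell in WT cells at 24 h, with a median of -0.53. Lrrc32, the GARP protein that presents latent TGF-beta to the receptor made by Itgav and Itgb8, fell by 2.00 on the log2 scale (146 to 36.6 CPM on average), and Plaur, the urokinase receptor, by 1.89. The tetraspanins Cd151, Cd53 and Cd9, which associate with integrins, fell by 1.496, 1.15 and 0.86. Between the genotypes 6 of the 23 were called at 0 h and 4 at 6 h, all higher in Aim2-/- cells, where 5.23% and 15.8% of all genes were called. Without the mouse labelled WT 1, 5 and 4 of 24 were (5.77% and 11.4%). In the same comparisons 3 and 4 of 8 B cell, 3 and 2 of 8 myeloid, and 6 and 6 of 6 basophil and mast cell markers were higher, and their part in these calls was not tested. At 0 h these included fibronectin, Fn1 (2.31, adjusted p = 0.00975), Slc3a2, the heavy chain CD98 that binds beta chains (0.54, 0.0102), and Cd82 (0.51, 0.0165). At 6 h they included Cd81 (0.91, adjusted p = 0.0116) and Icam4 (2.19, 0.0164), and Cd9 was among them at both times (0.67 and 0.56). Each of these 6 genes was also called at the same times without the mouse labelled WT 1.

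The genes whose pattern was most like that of each member are given as a description, by Pearson's r of log2 CPM over the 24 libraries, which share mice and stimulation times. For Itga4 these were Nt5e, the ectoenzyme CD73 (r = 0.986), and Nav2 (0.985). For Itgb8 they were Spock2 (0.982) and Ikzf2, the transcription factor Helios (0.979), and for Itgae Myo1e (0.968) and Ikzf2 (0.965). Itgav was most like Icos, a costimulatory receptor (0.981), and Creb3l2 (0.980), Itga6 most like Numb (0.979) and Arhgef11 (0.977), and Itgb7 most like Pea15a (0.966) and Cpt1a (0.964). Itgb3, which peaked early, was most like Irf7 (0.978) and Fas (0.968). Itgal (Lrba, 0.859, and Ptpn11, 0.820) and Itgb2 (Ptk2b, 0.682, and Itgal, 0.664) had weaker matches, beside their small changes. Itgb1 stood with Ighv5-16, an immunoglobulin segment (0.884), and Slc39a4 (0.876). Among the 10 genes themselves the closest pair was Itga4 and Itgb8 (0.964), followed by Itgae and Itgb8 (0.960), and the most opposed were Itgal and Itgb3 (-0.48).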

How the data were processed

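Per the labels and the study's methods, splenic CD4+ T cells were isolated by removing other cells with antibody-coated beads, and stranded mRNA libraries were sequenced from 1 end. STAR was used by the authors to align reads to GRCm38, and the deposited values are unnormalized counts of reads in each Ensembl gene; whether counting used the strand is not stated. Symbols, positions and exon lengths came from GENCODE M21 of the same build, which matched 54409 of 54446 identifiers. Counts were tested with edgeR 4.0.16 (quasi-likelihood F test, two-sided, all 24 libraries, 8 group means, TMM, filterByExpr with a minimum count of 10; 15325 genes; common dispersion 0.0346). A gene was called at an adjusted p (Benjamini-Hochberg, all genes, within a comparison) under 0.05. CPM uses TMM-scaled library sizes, and log2 CPM a prior count of 2. The scripts were tested on simulated data.

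The 4 libraries of a mouse are 1 animal, so times are paired: deviations from group means correlated at 0.139 to 0.567 in 36 pairs of the same mouse and at -0.432 to 0.0742 in 72 pairs of different mice of a genotype. The fit without the mouse is the main one, with the block given where it changes a call. Ratios were tested by exact sign flips (scipy 1.17.1). Alternatives were DESeq2 1.42.0 size factors and test, limma-voom (limma 3.58.1), library totals, other filters, only the libraries compared, marker scores as terms, and each library and mouse left out. The block without the mouse labelled WT 1, and the gene lists without that mouse, were added after the data were seen. All members were named. Of each list, up to 5 genes with the largest change among those called in WT cells at 24 h with at least 10 CPM were named, plus up to 5 called between genotypes. Members and lists were chosen with earlier results of these data known.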

Additional observations from a re-analysis of the deposited data

Results flagged for a closer look

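For 3 genes the change from 0 h differed between the genotypes by an interaction test with the mouse as a block (edgeR's quasi-likelihood test, adjusted over all genes). At 24 h the Aim2-/- change minus the WT change was 0.92 for Itga4, -0.54 for Itgav and -0.52 for Itgal, and at 6 h it was -0.67 for Itgav. None of these passed in the fit without the block (adjusted p from 0.250 to 0.471). There, with libraries or mice left out in turn, they ran from 0.61 to 1.16 for Itga4, -0.75 to -0.31 for Itgav and -0.64 to -0.35 for Itgal at 24 h and from -0.91 to -0.46 for Itgav at 6 h, with no call (adjusted p from 0.0791 to 0.979). With the block and without the mouse labelled WT 1 they stayed called, at 0.91, -0.66, -0.55 and -0.70, and Itgb1 at 24 h was called too (-0.78). In these same libraries Itgal was lower at 24 h than at 0 h in the 3 Aim2-/- mice. It was higher in 2 of the 3 WT mice, 1 of them the mouse labelled WT 1.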

How the results depend on the processing

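Of 34 changes from 0 h that were called for a member, 24 kept their call under every alternative run, and none changed direction. The other 10 were Itgal at 3 h in WT and at all times in Aim2-/- cells, and calls at 6 h of Itgb2, Itgae, Itgb3 and Itgb8 in Aim2-/- cells and of Itgav and Itgb3 in WT; the cause was not tested. A further 6 changes were called under at least 1 alternative other than the block, those of Itgae and Itgb8 at 6 h in WT and of Itgav at 3 h, Itga4 at 6 h and Itgb1 and Itgb2 at 24 h in Aim2-/- cells. In WT cells at 0 h, levels per length moved by more than 1 SD with the longest transcript for Itgal (116 CPM per kb), Itga4 (45.0), Itgav (22.4) and Itga6 (72.3).

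Counts of members called moved by over 1.5 times as follows. With the mouse as a fixed replicate block, which uses the pairing of times, they were 5 at 3 h in each genotype, 8 and 6 from 3 h to 6 h in WT and Aim2-/- cells, and 1 and 3 for the interactions at 6 h and 24 h; the block moved no other count that far. Without the mouse labelled WT 1 the block gave 1 and 4 for the same interactions. Library totals gave 5 in Aim2-/- cells at 6 h. From 3 h to 6 h, no filter gave 4 and 5 (10.4% and 9.65% of all genes), only the libraries compared 1 and 1, and DESeq2 size factors in edgeR 1 in WT. Between the genotypes at 0, 3, 6 and 24 h, no filter gave 2, 2, 1 and 2 (4.78%, 2.47%, 9.38% and 3.07% of all genes). DESeq2 gave 2 at 0 h, 1 at 6 h and 1 summed per mouse, voom 1 at 0 h, voom with mouse as a random replicate block 3 at 0 h and 2 at 6 h, and a mean of at least 1 CPM 1 at 6 h. Mouse numbers are shared by different animals of the genotypes (8 pairs, r from -0.165 to 0.268) and pair nothing. With them as a block 5, 4, 4 and 5 were called. Between the genotypes the share of all genes is given for no filter only, so the other counts cannot be set against it.

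With 1 library or mouse left out, where a lone pair of mice is assumed to vary like the other groups, counts ran from 3 to 7 in WT and 3 to 8 in Aim2-/- cells at 6 h, from 0 to 3 and 0 to 2 from 3 h to 6 h, from 0 to 2, 0 to 1, 0 to 2 and 0 to 1 between the genotypes, and from 0 to 1 summed per mouse. The log2 changes of the ratios ran from 0.864 to 1.102 for Itgb1 to Itgb7, -1.76 to -1.50 for Itga4 to Itgb7 (adjusted p = 0.0938 in each, the smallest that 5 mice allow over 3 ratios) and -0.0708 to 0.0551 for Itgal to Itgb2.

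Directions turned for differences between genotypes that were not called and for the uncalled Itgal to Itgb2 ratio, at -0.0232 and -0.0708 with 1 mouse left out. Itgb1 at 24 h was 0.0574 by library totals and 0.0185 with only the libraries compared, and -0.0949 to 0.0531 with libraries or mice left out. Itgav at 6 h was 0.0413 by library totals, 0.0123 by voom without the block and 0.0121 with it, and -0.148 to 0.204 with libraries or mice left out. With marker scores as terms, Itgav and Itga6 at 24 h were -0.33 and 0.23. All members lay above the floor in all libraries.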
